A study of Mus musculus with 14 samples.

Results

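Foxq1, Foxf2 and Foxc1 are forkhead transcription factor genes that follow each other on mouse chromosome 13. They were taken from the deposited tables by Ensembl identifier, as 3 of 22598 genes. They were chosen by measured values, their reads and their CPM (read counts scaled to a common library size) across the 4 groups of the study. Their levels and differences between groups are therefore given as a description, without a test.

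The RNA came from CD4+ T cells of C57BL/6J mice. Per the labels, CD4+ TCRb+ cells were sorted from the spleen, and naive cells were activated and cultured toward Th2, a helper T cell fate known from allergy and worm infection. The 14 libraries fall into 4 groups: WT at day 7 (n = 4), Ago134 at day 7 (n = 4), WT at day 14 (n = 3) and Ago134 at day 14 (n = 3), and both genotypes went through the same Th2 culture. Ago134 mice lack Ago1, Ago3 and Ago4 together, genes of the Argonaute family whose proteins carry microRNAs, and are called knockout below. The series text calls WT and knockout mice littermates, gives day 14 in 1 place and another day in a second, and names further samples that are not analysed here. The labels give neither the kind of knockout allele nor the number of mice, nor whether the libraries come from separate cultures, so p-values reflect no more than the spread among these libraries, and that spread could be technical.

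Forkhead proteins bind DNA through a shared winged-helix domain and switch target genes on or off. In T cells the family is best known for Foxo1 and Foxp1, which keep naive cells at rest, for Foxp3, which defines regulatory T cells, and for Foxm1, which drives genes of cell division. The 3 genes of the cluster are known from other tissues. Foxq1 acts in hair follicles and epithelia, Foxf2 in the connective tissue of gut and palate and in brain pericytes, and Foxc1 in the eye, the skeleton and blood vessels.

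All 3 genes lie on the + strand within 256343 bases (GRCm38). Foxq1 (ENSMUSG00000038415) spans chr13:31556134-31560976 and has 1 exon. Foxf2 (ENSMUSG00000038402) starts 64839 bases after its end, spans chr13:31625816-31631403 and has 2 exons. Foxc1 (ENSMUSG00000050295) lies a further 175229 bases on, at chr13:31806633-31812476, and has 1 exon. The counted widths of 1203, 1341 and 1662 bases equal the coding sequences with their stop codons.

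The genes share coding sequence for the forkhead domain, which bears on whether their reads can be told apart. The most alike stretch of 90 coding bases, read in frame without gaps from the reference transcripts, is shown for each, 5′ to 3′ on the + strand. Capitals mark the 61 bases that are identical in all 3 genes.
Foxq1, chr13:31559355-31559444: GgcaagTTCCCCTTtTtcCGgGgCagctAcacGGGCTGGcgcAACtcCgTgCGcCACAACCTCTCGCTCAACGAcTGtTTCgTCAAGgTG
Foxf2, chr13:31626473-31626562: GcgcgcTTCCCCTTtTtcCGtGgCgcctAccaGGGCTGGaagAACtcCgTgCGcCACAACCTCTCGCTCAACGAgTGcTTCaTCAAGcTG
Foxc1, chr13:31807535-31807624: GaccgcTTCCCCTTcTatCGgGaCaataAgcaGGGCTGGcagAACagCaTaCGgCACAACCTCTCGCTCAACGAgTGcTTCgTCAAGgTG
Foxq1 and Foxf2 matched at 73 of these 90 bases, Foxf2 and Foxc1 at 70, and Foxq1 and Foxc1 at 67. The longest run of identical coding bases was 32 for Foxq1 and Foxf2, 27 for Foxf2 and Foxc1, and 20 for Foxq1 and Foxc1. No source used here gives the read length.

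Promoters are shown for Foxf2, which had at least 116 reads in every day 14 library, and for Foxc1, which had almost none. RefSeq promoter windows (GRCm38.p6) matched these 2 of the 3 genes. Each run ends at the base before the gene start on the + strand, and capitals mark GGGCGG, the core of Sp1 sites.
Foxf2, chr13:31625566-31625815: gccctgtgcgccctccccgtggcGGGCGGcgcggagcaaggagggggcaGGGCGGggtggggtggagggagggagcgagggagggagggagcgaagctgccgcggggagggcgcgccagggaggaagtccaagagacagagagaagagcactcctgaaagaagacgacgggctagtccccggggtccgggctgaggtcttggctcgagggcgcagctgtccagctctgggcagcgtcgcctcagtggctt
Foxc1, chr13:31806396-31806632: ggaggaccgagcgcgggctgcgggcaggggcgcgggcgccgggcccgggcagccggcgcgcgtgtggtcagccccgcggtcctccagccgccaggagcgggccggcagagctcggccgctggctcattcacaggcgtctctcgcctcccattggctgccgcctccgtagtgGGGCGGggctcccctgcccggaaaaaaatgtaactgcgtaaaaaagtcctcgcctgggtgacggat
Over the 250 bases before the RefSeq start, the Foxf2 promoter had 71.6% G and C and 21 CpG pairs and the Foxc1 promoter 70.8% and 29, against medians of 52.4% and 6 over 32851 promoters. GGGCGG, searched on both strands, occurred 2 times in the window of Foxf2 (these bases and the first 50 of the gene), 1 time in that of Foxc1, and in 35.7% of all windows. None of 6 other motifs, searched on both strands, had its letters in either window. The forkhead motif GTAAACA occurred in 3.65% of all windows and the AP-1 motif TGANTCA in 7.81%. The GATA motif AGATAA occurred in 11.2% and the STAT motif TTCNNNGAA in 8.30%. The TCF/LEF motif CTTTGAT occurred in 3.73% and the E-box CACGTG in 7.15%.

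Total counts per library ran from 23326248 to 35803197. Ago1 had 128 to 141 reads in each WT library at day 7 and 67 to 100 at day 14, against 0 in 6 knockout libraries and 2 in the other, which matches the labels. Library 3 of WT at day 14 stood apart from the rest of its group. Without it, 2640 genes in place of 165 differed between the genotypes at day 14 (edgeR, adjusted p under 0.05). The sequencing lanes named with the deposited tables form 2 consecutive series. WT day 7 library 1, WT day 14 libraries 1 and 3 and all knockout day 14 libraries belong to the second series, and the other libraries to the first. Day and lane series therefore cannot be told apart in the knockout. A term for the lane series takes its effect from the WT libraries alone. It therefore cannot check a knockout difference over time, whether the call is kept or lost. This applies to every knockout value over time given with that term below.

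Foxq1 was low at day 7, higher at day 14 and highest in WT at day 14. At day 7 it had 20, 33, 32 and 20 reads in the WT libraries and 39, 40, 49 and 46 in the knockout libraries. At day 14 it had 507, 695 and 933 reads in WT and 207, 352 and 181 in the knockout. Every day 14 library of either genotype lay above every day 7 library, and at neither day did the genotypes overlap in CPM. In bulk RNA, more cells that express a gene and more RNA per cell cannot be told apart.

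As CPM, the WT day 7 libraries held 0.557, 1.07, 1.02 and 0.836, a mean of 0.872 ± 0.234 (SD, n = 4). Knockout libraries at day 7 held 1.68, 1.35, 1.54 and 2.04 CPM, a mean of 1.65 ± 0.290 (SD, n = 4). At day 14 the WT libraries held 18.9, 23.2 and 28.8 CPM (23.6 ± 5.01, SD, n = 3). The knockout libraries then held 6.12, 11.6 and 5.46 CPM (7.72 ± 3.37, SD, n = 3). The order of the groups was thus WT day 14, knockout day 14, knockout day 7 and WT day 7, and no neighbours in this order overlapped.

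The Foxq1 difference between genotypes changed sign between the days. At day 7 the knockout mean was 1.89 times the WT mean, a log2 fold change of 0.92 ± 0.31 (SE). At day 14 it was 0.327 times the WT mean, a log2 fold change of -1.61 ± 0.34. All knockout libraries lay above all WT libraries at day 7, as was the case for 9.27% of the 11591 genes fitted (12.9% had the opposite order), and all lay below at day 14, as for 5.25% (9.71% the opposite). Both together held for 26 genes, or 0.224%, and nothing is read from these shares, since they rest on the values that chose the gene.

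From day 7 to day 14 the Foxq1 mean was 27.1 times higher in WT, a log2 fold change of 4.76 ± 0.35. In the knockout it was 4.68 times higher, a log2 fold change of 2.23 ± 0.32. The day 14 libraries lay above all day 7 libraries in both genotypes, which held for 17.2% of genes in WT and 13.6% in the knockout. The difference between the 2 genotype contrasts, day 14 minus day 7, was -2.53 ± 0.46 on the log2 scale. Without WT day 14 library 3, the differences were -1.45 between genotypes at day 14, 4.59 in WT over time and -2.36 between the contrasts.

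Within lane series, the Foxq1 picture had the same signs where it could be computed. In the first series at day 7, 4 knockout libraries exceeded 3 WT libraries by 0.71 in mean log2 CPM. In the second series at day 14, 3 knockout libraries were below 2 WT libraries, with a difference of -1.67. In WT, day 14 exceeded day 7 by 4.49 in the first series and by 5.23 in the second. No series holds knockout libraries of both days.

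**Figure D1:**
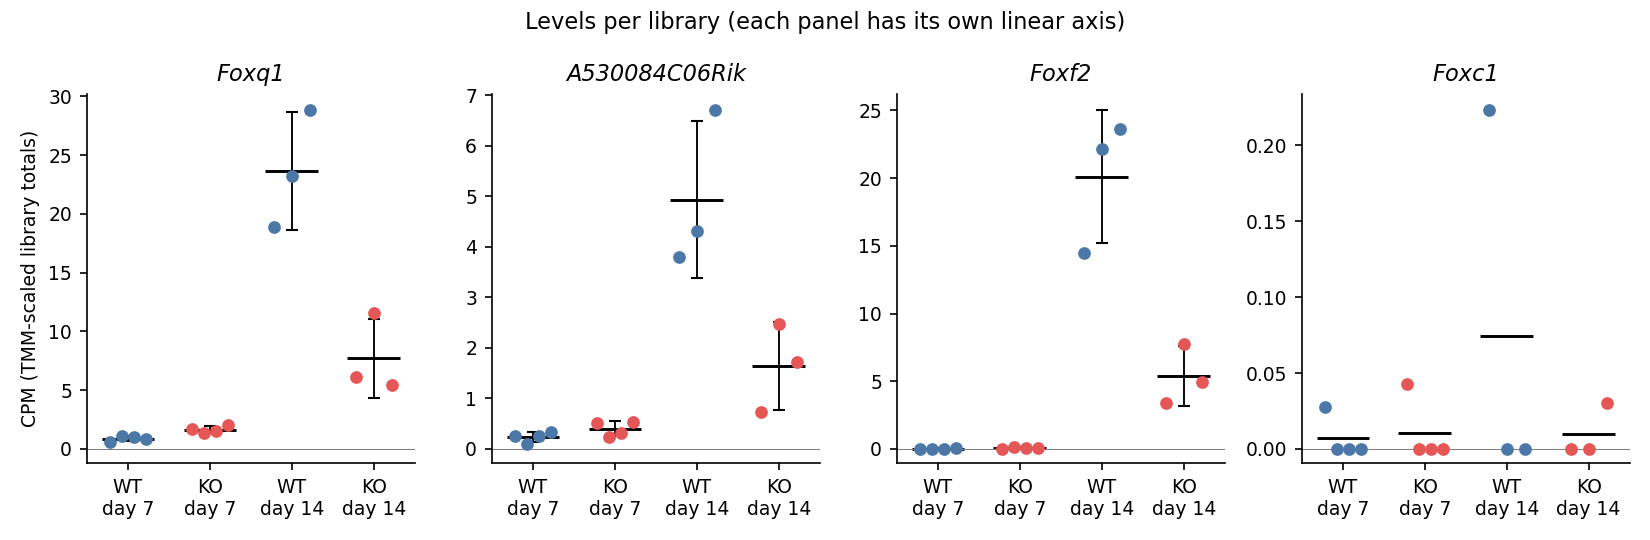
CPM on TMM-scaled library totals (vertical axes, linear and separate for each gene) of Foxq1, the overlapping gene A530084C06Rik, Foxf2 and Foxc1 in each library of WT (blue) and knockout (KO, red) at day 7 and day 14. Points are libraries, horizontal bars are group means and error bars are the SD, left out for Foxc1. Foxq1 reached 18.9 to 28.8 CPM in WT at day 14, above the 5.46 to 11.6 CPM of the knockout, while no Foxc1 library passed 0.223 CPM.

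A second annotated coding gene, A530084C06Rik (ENSMUSG00000090863, chr13:31556134-31559333, minus strand, 1 exon), lies across the first part of Foxq1. Its coding bases cover 352 coding bases of Foxq1. Whether counting used strand is unknown, so reads of the 2 genes cannot be told apart there, and its values are not a separate observation. It had 9, 3, 8 and 8 reads in WT at day 7 and 12, 7, 10 and 12 in the knockout. At day 14 it had 102, 129 and 217 reads in WT and 25, 75 and 57 in the knockout. Its reads were thus fewer than those of Foxq1 in every library and followed the same order of group means. Its log2 fold changes were 0.75 ± 0.49 between genotypes at day 7, where the groups overlapped, and -1.59 ± 0.48 at day 14, where they did not. Over time it was higher by 4.39 ± 0.50 in WT and 2.05 ± 0.48 in the knockout.

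Foxf2 went from at most 5 reads in a library at day 7 to at least 116 at day 14. At day 7 it had 1, 0, 0 and 1 reads in WT and 0, 5, 2 and 1 in the knockout. At day 14 it had 390, 663 and 765 reads in WT, or 14.5, 22.1 and 23.6 CPM (20.1 ± 4.90, SD, n = 3). The knockout libraries then had 116, 236 and 165 reads, or 3.43, 7.78 and 4.98 CPM (5.39 ± 2.21, SD, n = 3). The lowest WT library at day 14 lay above the highest knockout library, and all day 14 libraries lay far above day 7. Such an order of genotypes at day 14 held for 5.25% of the genes fitted (9.71% the opposite). The order of days held for 17.2% in WT and 13.6% in the knockout. Nothing is read from these shares, since they rest on the values that chose the gene. The 2 groups at day 7 overlapped, so that the order of Foxf2 levels was WT day 14, knockout day 14 and then both day 7 groups.

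At day 14 the Foxf2 mean in the knockout was 0.268 times that in WT, a log2 fold change of -1.90 ± 0.48. It was -1.76 without WT day 14 library 3 and -2.26 without knockout day 14 library 2. Within the second lane series, the difference in mean log2 CPM was -1.85. With 8 reads against 2 at day 7, the knockout to WT ratio of depth-scaled reads was 4.54, with an exact 95% counting interval of 0.906 to 43.9. Knockout day 7 library 2 held 5 of those 8 reads.

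Over time, the ratio of depth-scaled Foxf2 reads at day 14 to day 7 was 1242 in WT, with a counting interval of 343 to 10265. In the knockout it was 71.3, with an interval of 35.9 to 166. These intervals cover counting error only. The fitted log2 fold changes, 9.93 ± 0.70 in WT and 6.12 ± 0.59 in the knockout, depend on the prior count because day 7 was near 0.

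Foxc1, the third gene of the cluster, had 9 reads in all 14 libraries together. Of these, 6 fell in WT day 14 library 1, and the other 3 were single reads in WT day 7 library 1, knockout day 7 library 1 and knockout day 14 library 3. The other 10 libraries had 0 reads. Foxc1 did not pass the filter on low counts and was not fitted. The reads are too few, and too far concentrated in 1 library, to compare groups. A count of 0 allows up to 3 reads, which is 0.0835 to 0.133 CPM per library.

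Foxq1 and Foxf2 levels can be compared per length, as the deposited RPKM, which scale reads for depth and coding length. In WT at day 14, Foxq1 stood at 6.68, 8.27 and 11 RPKM and Foxf2 at 4.61, 7.08 and 8.09 RPKM. In the knockout at day 14, Foxq1 stood at 2.38, 4.37 and 1.86 RPKM and Foxf2 at 1.19, 2.63 and 1.52 RPKM. Foxf2 was below Foxq1 in each of these 6 libraries. The ratio of Foxf2 to Foxq1 was 0.690, 0.856 and 0.736 in WT and 0.503, 0.601 and 0.818 in the knockout, so the ratios of the genotypes overlapped. At day 7 it was at most 0.112 in any library.

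The log2 CPM values of Foxq1 and Foxf2 had a Pearson correlation of 0.961 over all 14 libraries and 0.974 over the 6 libraries of day 14. Over the 8 libraries of day 7, where Foxf2 had 0 to 5 reads, it was 0.166. The libraries share their day and genotype differences, so these values describe the pattern over groups as much as within them.

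The 3 tested genes most like Foxq1 in log2 CPM over the 14 libraries were Tnfrsf8 (r = 0.979), Slc22a15 (0.978) and Plcd1 (0.976). Tnfrsf8 encodes CD30, a TNF receptor family member of activated lymphocytes. It stood at 0.167 to 1.16 CPM at day 7, at 44.6 to 140 CPM in WT at day 14 and at 2.92 to 22.5 CPM in the knockout at day 14. Plcd1, a phospholipase C gene, stood at 5.61 to 8.41 CPM at day 7, at 115 to 117 CPM in WT at day 14 and at 30.1 to 46.4 CPM in the knockout at day 14. Slc22a15, a solute carrier gene, stood at 1.14 to 1.72 CPM at day 7, 8.13 to 8.77 in WT at day 14 and 3.26 to 4.94 in the knockout at day 14. All 3 were highest in WT at day 14 without overlap with the knockout. They were chosen by their correlation with Foxq1 over these libraries, so a like order of groups is not a separate observation. Of all genes fitted, 5.25% were lower in the knockout at day 14 without overlap.

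The genes most like Foxf2 were Mcf2l (r = 0.979), Ctsh (0.978) and Thbs4 (0.977). Thbs4, which encodes the matrix protein thrombospondin 4, had no reads in any day 7 library. It stood at 2.90 to 17.5 CPM in WT and 0.591 to 2.90 CPM in the knockout at day 14. Mcf2l, a guanine nucleotide exchange factor gene, stood at 0 to 0.111 CPM at day 7, 34.4 to 78.8 in WT at day 14 and 4.96 to 48.2 in the knockout at day 14. Ctsh, which encodes the protease cathepsin H, stood at 0 to 0.169 CPM at day 7, 6.73 to 37.4 in WT at day 14 and 1.09 to 6.64 in the knockout at day 14. Like Foxf2, all 3 were at or near 0 at day 7, but the genotypes overlapped at day 14 for Mcf2l and Thbs4. Their likeness to Foxf2 follows from the choice by correlation and is not a separate observation.

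The genes around the cluster were not part of the choice and were tested. Within 1 Mb of the cluster the annotation lists 35 other genes, of which 9 are in the deposited tables. Besides A530084C06Rik, 5 of them had enough reads, and Gm5447, Mylk4 and D930007J09Rik had 0 reads in every library. Over time in WT, 3 of the 5 rose and none fell, where 13.2% of all genes tested rose and 7.33% fell. In the knockout 2 rose and none fell, against 10.5% and 4.92% of all genes. The median log2 fold change of the 5 was 0.81 in WT and 1.05 in the knockout, against 0.00 and 0.02 over all genes. Within each genotype, these changes were of a smaller size than the descriptive differences of Foxq1 and Foxf2.

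Irf4, a transcription factor gene of activated T cells needed for Th2 cells, lies 789158 bases before Foxq1. It stood at 1.73, 4.10, 4.44 and 3.89 CPM in WT at day 7 and at 14.6, 12.3 and 37.8 CPM at day 14. All WT day 14 libraries lay above those of day 7, as for 17.2% of the genes fitted (13.8% had the opposite order). Irf4 rose in WT by 2.61 ± 0.50 on the log2 scale (edgeR adjusted p = 0.00202), and the p stayed between 0.00141 and 0.00774 in the 14 fits that each left out 1 library. In the knockout Irf4 stood at 3.53, 2.97, 1.82 and 5.40 CPM at day 7 and at 3.90, 11 and 7.18 CPM at day 14. That difference of 1.11 ± 0.49 did not pass the test (edgeR adjusted p = 0.158). The difference between the genotype contrasts did not pass either (-1.50 ± 0.70, edgeR adjusted p = 0.623).

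Gmds, an enzyme gene of GDP-fucose synthesis, ends 7103 bases after Foxc1 and is read toward it. It stood at 12.7 to 14.6 CPM in WT and 17.3 to 18.9 CPM in the knockout at day 7, and at 18.4 to 28.5 and 21.8 to 53.1 CPM at day 14. It rose by 0.81 ± 0.26 in WT (edgeR adjusted p = 0.0387) and by 1.05 ± 0.26 in the knockout (edgeR adjusted p = 0.0127). In WT the adjusted p ran up to 0.0936 when 1 library was left out and passed 0.05 without any single WT day 7 library, knockout day 7 library 1, 2 or 3, or WT day 14 library 2 or 3. In the knockout the call was lost without knockout day 14 library 3, with an edgeR adjusted p of 0.0967. With a term for the lane series the edgeR adjusted p was 0.0599 in WT and 0.138 in the knockout, at log2 fold changes of 0.85 and 1.14.

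Dusp22, a phosphatase gene that acts on signalling kinases, rose by 0.91 ± 0.30 in WT (edgeR adjusted p = 0.0453) and by 1.08 ± 0.30 in the knockout (edgeR adjusted p = 0.0251). Its levels were 2.87 to 4.83 CPM over both day 7 groups and 4.80 to 10.5 CPM over both day 14 groups. The WT call was lost in 9 of the 14 fits that left out 1 library (edgeR adjusted p up to 0.145), among them those without WT day 7 library 1, 2 or 3, knockout day 7 library 1, 2 or 3, WT day 14 library 2 or 3 and knockout day 14 library 2. The knockout call was lost in 5 (up to 0.146), without knockout day 7 library 1, 2 or 3 or knockout day 14 library 2 or 3. With the lane series term the edgeR adjusted p was 0.0837 in the knockout, at a log2 fold change of 1.49. Exoc2, a gene of the exocyst complex, and Hus1b, a DNA damage checkpoint gene, passed no test over time, with log2 fold changes between -0.39 and 0.57.

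Between genotypes none of the 5 neighbours passed the edgeR test at either day or for the difference between the days, where 0.0949%, 1.42% and 0.0863% of all genes passed. Of all genes 0.0518% were higher and 0.0431% lower at day 7, 0.845% and 0.578% at day 14, and 0.0604% and 0.0259% for the difference. At an unadjusted p under 0.05 there were 0 at day 7, 2 at day 14 (Irf4 and Gmds) and 1 for the difference (Irf4). Of the 11591 genes tested, 2716, 2515 and 924 were at such a p. DESeq2 called 0, 1 and 0, and limma-voom 2, 1 and 0. Over all genes at day 7, DESeq2 called 506 and limma-voom 5045. Irf4 was lower in the knockout at day 14 by a log2 fold change of -1.55 ± 0.53 that did not pass (edgeR adjusted p = 0.129).

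**Figure D2:**
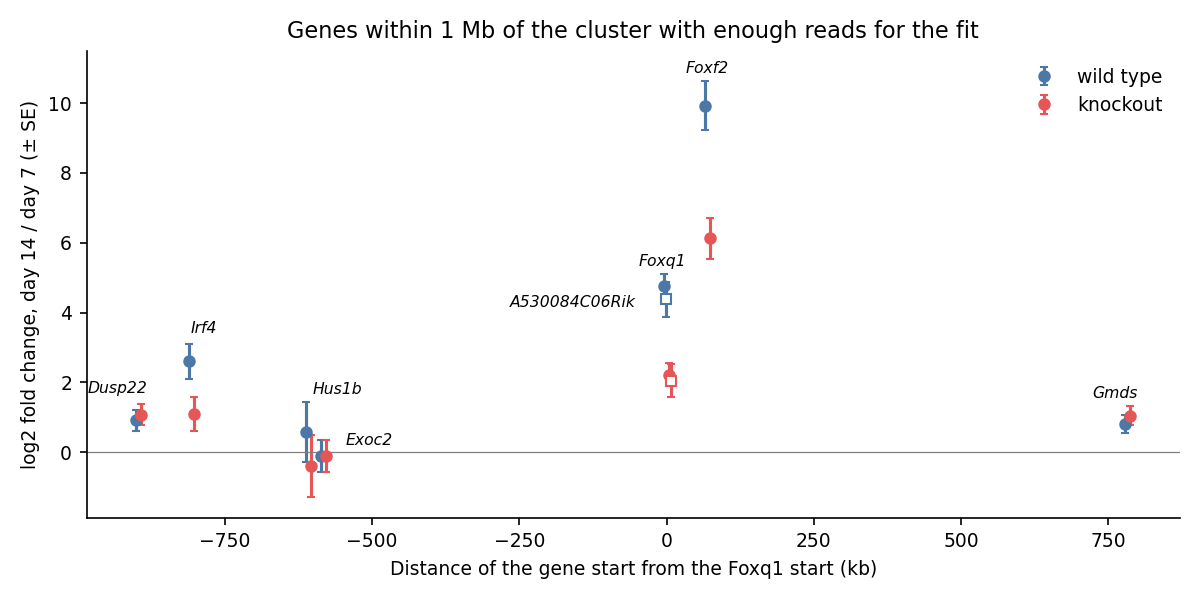
Log2 fold change from day 7 to day 14 (vertical axis, ± SE) against the distance of each gene's start from the Foxq1 start in kilobases, for WT (blue) and knockout (red). Foxq1 and Foxf2 are shown without a test, A530084C06Rik as open squares because its reads cannot be told apart from those of Foxq1. Foxf2 at 9.93 and Foxq1 at 4.76 in WT lie above Irf4 at 2.61, and Dusp22, Exoc2, Hus1b and Gmds lie between -0.39 and 1.08.

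Among the other 41 forkhead genes of the tables, 14 had no reads, 12 had 1 to 91 reads in all and were not tested, and 15 were tested. Over time in WT, 4 fell and none rose, where 7.33% of all genes fell and 13.2% rose. In the knockout 3 fell and 2 rose, where 4.92% of all genes fell and 10.5% rose. The median of the 15 was -0.02 in WT and -0.10 in the knockout, against 0.00 and 0.02 over all genes. In WT, Foxk2 passed without knockout day 14 library 2 (edgeR adjusted p = 0.0223, against 0.116 with all libraries) and Foxe1 without WT day 14 library 3 (0.0382, against 0.108). Foxq1 and Foxf2 were 4.76 and 9.93 higher in WT on the log2 scale, without a test.

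Foxo1 was the forkhead gene with the most reads. It stood at 851, 894 and 946 CPM (lowest, median and highest) in WT at day 7 and at 217, 236 and 265 CPM at day 14. It fell by 1.90 ± 0.21 in WT (edgeR adjusted p = 3.15e-05) and by 1.19 ± 0.20 in the knockout (edgeR adjusted p = 0.00111), and each call held in all 14 fits without 1 library. With the lane series term the edgeR adjusted p in the knockout was 0.0351, but that term cannot check a change over time there. Foxp1 stood at 288 to 399 CPM in WT at day 7 and at 66.2 to 120 CPM at day 14 and fell by 1.77 ± 0.29 (edgeR adjusted p = 0.000602). In the knockout its difference was -0.64 ± 0.27 (edgeR adjusted p = 0.143, and 0.0221 without knockout day 14 library 1). The difference between the genotype contrasts passed neither for Foxo1 (0.72 ± 0.27, edgeR adjusted p = 0.486) nor for Foxp1 (1.13 ± 0.38, edgeR adjusted p = 0.370).

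Foxm1 rose in the knockout by 3.87 ± 0.61 (edgeR adjusted p = 0.000764), from 1.68 to 3.92 CPM at day 7 to 10.8, 34.9 and 62.6 CPM at day 14. In WT its difference of 1.09 ± 0.57 did not pass (edgeR adjusted p = 0.204). With the lane series as a term the adjusted p in the knockout was 0.0819. The difference between the contrasts was 2.78 ± 0.82 (edgeR adjusted p = 0.276), and 3.73 (edgeR adjusted p = 0.0240) without WT day 14 library 3.

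Of the remaining forkhead calls over time, Foxn3 fell in WT by 1.24 ± 0.33 (edgeR adjusted p = 0.0157, lost without WT day 14 library 1 or 2, up to 0.0619). In the knockout its difference of -0.85 ± 0.32 passed only without knockout day 14 library 1 (edgeR adjusted p = 0.0971, and 0.00387 without it). Foxk1 fell in both genotypes, by 0.67 ± 0.22 in WT (edgeR adjusted p = 0.0423) and by 0.93 ± 0.22 in the knockout (edgeR adjusted p = 0.0102). The WT call was lost in 9 of 14 fits without 1 library, up to 0.0905, namely any WT day 7 library, knockout day 7 library 1, 2 or 3, or WT day 14 library 2 or 3, and the lane series term gave 0.0787. Foxk2 rose in the knockout by 1.12 ± 0.35 (edgeR adjusted p = 0.0417) and Foxo3 fell there by 0.77 ± 0.23 (edgeR adjusted p = 0.0375), and these calls were lost in 9 and 10 of the 14 fits, up to 0.426 and 0.157. The Foxk2 call held without knockout day 7 library 1, WT day 14 library 2 or 3, or knockout day 14 library 1 or 3. The Foxo3 call held without any WT day 14 library or knockout day 14 library 1. The lane series term, which cannot check these knockout changes, gave an edgeR adjusted p of 0.171 for Foxk1, 0.251 for Foxk2 and 0.294 for Foxo3. Among genes with no call in the fit of all libraries, Foxj2 (3.80 to 14.7 RPKM in the group means), Foxp4 (2.06 to 3.80) and Foxe1 (2.17 to 3.62) were the most abundant per length.

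Between genotypes 0 of the 15 forkhead genes passed the edgeR test at day 7, at day 14 or for the difference, where 0.0949%, 1.42% and 0.0863% of all genes passed. At an unadjusted p under 0.05 there were 3, 4 and 3, DESeq2 called 0, 1 and 1, and limma-voom 8, 3 and 1. Of the 11591 genes tested, 2716, 2515 and 924 were at an unadjusted p under 0.05. At day 7, DESeq2 called 506 of all genes and limma-voom 5045. These all-gene counts also apply to the lists below. Without WT day 14 library 3, 5 passed at day 14. Foxm1 (2.83) and Foxp1 (0.96) were then higher in the knockout, and Foxj2 (-1.61), Foxp4 (-1.31) and Foxk1 (-0.79) lower, as log2 fold changes with edgeR adjusted p from 0.00979 to 0.0498. Foxj2 also passed without knockout day 14 library 2 (-2.01, edgeR adjusted p = 0.0492).

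**Figure D3:**
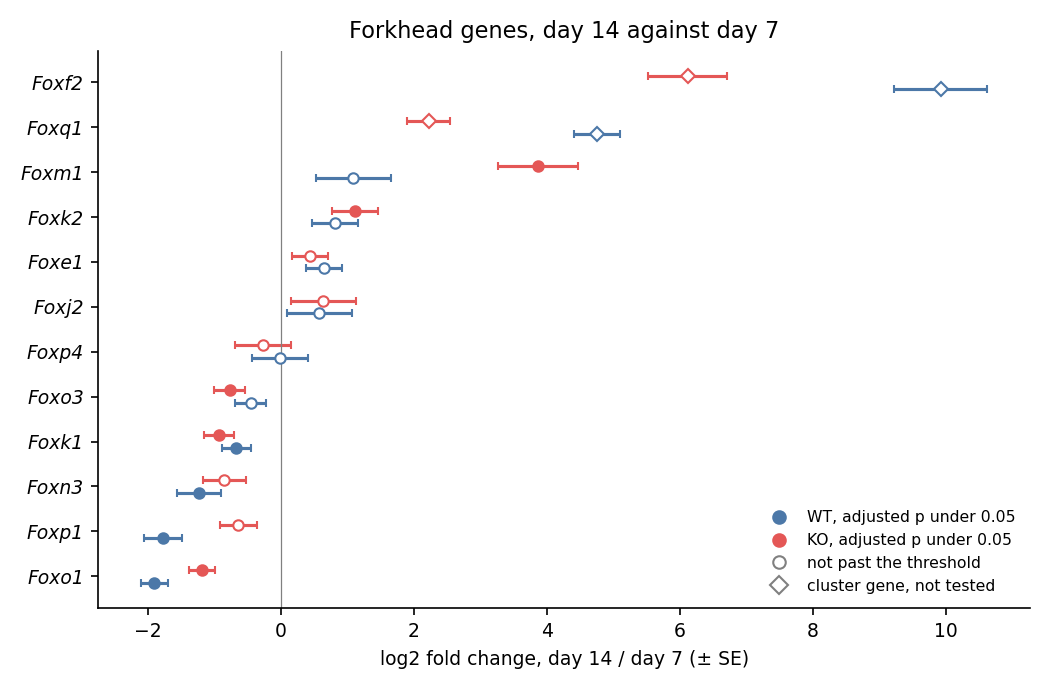
Log2 fold change from day 7 to day 14 (horizontal axis, ± SE) in WT (blue) and knockout (KO, red) for the named forkhead genes. Filled circles passed the edgeR test at an adjusted p under 0.05, open circles did not, and open diamonds mark Foxq1 and Foxf2, which were not tested. Foxf2 (9.93 and 6.12) and Foxq1 (4.76 and 2.23) lie to the right, while Foxo1 (-1.90 and -1.19) lies lowest in both genotypes.

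Foxf2 is known as a target of hedgehog signals in gut connective tissue, so hedgehog genes were listed. Of 11 genes 5 were tested. Smo, the signal transducer of the pathway, rose by 2.04 ± 0.37 in WT (edgeR adjusted p = 0.00150). It rose by 1.32 ± 0.37 in the knockout (edgeR adjusted p = 0.0267, 0.228 at most without 1 library). The lane series term gave a log2 fold change of 1.87 there (edgeR adjusted p = 0.0810). The knockout call was lost without knockout day 7 library 2, 3 or 4 or knockout day 14 library 2 or 3. No other gene of the list passed over time, and the transcription factor genes Gli2 and Gli3 had 0 reads in every group. The list median over time was -0.54 in WT and 0.33 in the knockout, against -0.002 and 0.02 over all genes. Of all genes tested 13.2% rose and 7.33% fell in WT, and 10.5% and 4.92% in the knockout. Between genotypes none passed with edgeR, with 4, 2 and 1 at an unadjusted p under 0.05 for day 7, day 14 and the difference, 1, 1 and 0 by DESeq2, and 5, 1 and 0 by limma-voom. Of the 11591 genes tested, 2716, 2515 and 924 were at that unadjusted p.

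Among 12 genes of Wnt signalling and its targets, to which Foxq1 has been tied in epithelial cells, 6 were tested. Tcf7, a transcription factor gene of naive T cells, fell by 2.61 ± 0.53 in WT (edgeR adjusted p = 0.00303) and by 2.45 ± 0.52 in the knockout (edgeR adjusted p = 0.00562). Lef1, its relative, fell by 1.35 ± 0.23 in WT (edgeR adjusted p = 0.000897) and by 1.52 ± 0.23 in the knockout (edgeR adjusted p = 0.000608). With the lane series term the knockout values were 0.0771 and 0.0502. Myc rose in the knockout by 0.66 ± 0.21 (edgeR adjusted p = 0.0489), a call lost in 11 of 14 fits without 1 library (up to 0.226) and held only without WT day 14 library 1 or 3 or knockout day 14 library 1. The list median over time was -0.31 in WT and 0.17 in the knockout, against -0.002 and 0.02 over all genes. Of all genes tested 13.2% rose and 7.33% fell in WT, and 10.5% and 4.92% in the knockout. Axin2 and the rest did not pass over time, and between genotypes none passed with edgeR, with 3, 2 and 1 at an unadjusted p under 0.05, 0, 1 and 0 by DESeq2, and 3, 1 and 1 by limma-voom. Of the 11591 genes tested, 2716, 2515 and 924 were at that unadjusted p.

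Of 12 genes for the epithelial to mesenchymal switch, in which forkhead genes of the cluster are known from tumours, 6 were tested. Cdh2, which encodes N-cadherin, rose by 2.53 ± 0.58 in WT (edgeR adjusted p = 0.00650) and by 2.27 ± 0.65 in the knockout (edgeR adjusted p = 0.0275), from at most 0.447 CPM at day 7 to at most 2.04 CPM. The knockout call was lost without knockout day 7 library 1, 2 or 3 or knockout day 14 library 2 or 3, up to 0.0905, and the lane series term gave 0.0519 in WT and 0.324 in the knockout. Cdh1, which encodes E-cadherin, stood at 0, 0.735 and 4.05 CPM in WT at day 14 and at 0.620, 9.92 and 23.2 CPM in the knockout, against at most 0.0557 CPM at day 7. It passed over time in both genotypes (edgeR adjusted p = 0.0132 in WT, 0.0816 without WT day 14 library 3, and 0.00170 in the knockout, 0.104 with the lane series term). Vim rose in the knockout by 0.92 ± 0.26 (edgeR adjusted p = 0.0282, lost without any knockout day 7 library or knockout day 14 library 2 or 3, up to 0.176, and 0.216 with the lane series term). The list median over time was 2.32 in WT and 0.57 in the knockout, against -0.002 and 0.02 over all genes. Of all genes tested 13.2% rose and 7.33% fell in WT, and 10.5% and 4.92% in the knockout. Between genotypes none passed with edgeR, with 0, 3 and 1 at an unadjusted p under 0.05, 0, 0 and 0 by DESeq2, and 1, 2 and 0 by limma-voom. Of the 11591 genes tested, 2716, 2515 and 924 were at that unadjusted p.

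The libraries carried the markers of T cells at high level. The 10 T cell genes, among them Cd3e, Cd4 and Lck, summed to 6967 to 12798 CPM over all libraries, with none at 0 in any group. Cd5 fell over time in both genotypes, by 0.76 ± 0.24 in WT (edgeR adjusted p = 0.0332) and by 0.95 ± 0.24 in the knockout (0.0135), and Cd4 fell in the knockout by 0.85 ± 0.21 (0.0132). Of all genes tested 13.2% rose and 7.33% fell in WT, and 10.5% and 4.92% in the knockout. Both knockout calls were lost without knockout day 14 library 3 (up to 0.0668). The lane series term, which cannot check them, gave 0.216 for Cd5 and 0.310 for Cd4. The WT call of Cd5 was lost without WT day 7 library 1, 3 or 4 or WT day 14 library 2 or 3 (up to 0.0722), and the lane series term gave 0.0755. At day 14 Cd4 stood at 309, 395 and 333 CPM in WT and at 145, 231 and 166 CPM in the knockout, without overlap (-0.94 ± 0.22, edgeR adjusted p = 0.0524). Of all genes fitted, 5.25% were lower in the knockout without overlap and 9.71% higher. The Cd4 difference passed without knockout day 7 library 4, WT day 14 library 3 or knockout day 14 library 2 (0.0161 at least). No T cell gene passed between genotypes with all libraries, with 3, 2 and 1 at an unadjusted p under 0.05 for day 7, day 14 and the difference, 1, 1 and 0 by DESeq2, and 7, 1 and 0 by limma-voom. Of the 11591 genes tested, 2716, 2515 and 924 were at that unadjusted p, and limma-voom called 5045 genes at day 7.

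Of the Th2 list, 6 of 8 tested genes rose over time in WT and 5 in the knockout, where 13.2% and 10.5% of all genes rose. The lane series term cannot check the 5 knockout calls, since day and lane series coincide there. With it the edgeR adjusted p was 0.257 for Il4, 0.138 for Il5, 0.127 for Ccr4, 0.172 for Ccr8 and 0.282 for Il1rl1. The log2 fold changes of these genes with the term were 1.70, 4.98, 0.74, 3.17 and 1.77, against 1.77, 5.05, 0.67, 3.23 and 3.00 without it. The knockout call of Il4 was lost without knockout day 7 library 1 or 2 or knockout day 14 library 2 or 3 (up to 0.105), and that of Ccr8 without knockout day 14 library 3 (0.0689). Il5, the cytokine gene of eosinophil responses, was among them, with no reads in WT at day 7 and 0.892, 4.91 and 9.37 CPM at day 14 (edgeR adjusted p = 0.000607). Il4ra was lower in the knockout at day 14 (-1.46 ± 0.32, edgeR adjusted p = 0.0369, 0.0864 with the lane series term), a call lost in 10 of 14 fits (up to 0.177) and held only without knockout day 7 library 1 or 4, WT day 14 library 3 or knockout day 14 library 2.

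Foxf2 is known from fibroblasts and pericytes, and the 12 markers of those cells were at low level. They summed to 0.511 to 2.84 CPM in WT and 0.372 to 1.25 CPM in the knockout at day 7, and to 2.81 to 6.54 CPM in WT and 0.935 to 2.18 CPM in the knockout at day 14. In WT at day 14, 8 of the 12 had a mean under 0.1 CPM, and Pdgfra, Fap, Postn, Cspg4 and Rgs5 had 0 reads. Pdgfrb made up most of the sum there, at 4.31, 4.54 and 1.58 CPM. It rose over time by 3.74 ± 0.59 in WT (edgeR adjusted p = 0.000540) and by 2.63 ± 0.68 in the knockout (edgeR adjusted p = 0.0163, lost without knockout day 7 library 3 or knockout day 14 library 2, and 0.162 with the lane series term). Between genotypes at day 14 Pdgfrb differed by -2.51 ± 0.62 (edgeR adjusted p = 0.0580) and passed only without WT day 14 library 3 or knockout day 14 library 2 (0.00665 at least). Of the 3 tested genes of the list only Pdgfrb passed over time. The list median over time was 0.08 in WT and 0.52 in the knockout, against -0.002 and 0.02 over all genes. Of all genes tested 13.2% rose and 7.33% fell in WT, and 10.5% and 4.92% in the knockout. The marker sum, mostly Pdgfrb in WT at day 14, was highest in the group where Foxf2 was highest. The part of these markers in the Foxf2 levels was not tested.

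Epithelial markers, which bear on Foxq1, summed to 2.08 to 4.42 CPM over all day 7 libraries. At day 14 they summed to 17.2 to 113 CPM in WT and to 36.7 to 107 CPM in the knockout. All 3 tested genes of the list rose in WT and 2 of 3 in the knockout, where 13.2% and 10.5% of all genes rose. Most of the sum was Epcam, which also marks some T cells. It rose by 4.73 ± 0.57 in WT (edgeR adjusted p = 7.52e-05) and by 4.82 ± 0.57 in the knockout (edgeR adjusted p = 0.000129). Krt18, a keratin gene of simple epithelia, rose in WT by 1.67 ± 0.46 (edgeR adjusted p = 0.0191, 0.0797 without WT day 14 library 2), and its difference in the knockout was 0.14 ± 0.46. Between genotypes Krt18 differed by 1.03 ± 0.44 at day 7 and by -0.50 ± 0.48 at day 14, the signs of the Foxq1 differences, and neither passed (edgeR adjusted p = 0.186 and 0.567). Epcam and Cdh1 did not have these signs. Epcam differed by 0.18 ± 0.50 and 0.27 ± 0.55 (edgeR adjusted p = 0.854 and 0.809). Cdh1 differed by -0.60 ± 2.81 and 2.80 ± 1.19 (edgeR adjusted p = 0.918 and 0.198), and passed at day 14 without WT day 14 library 3 (0.0237). The keratin genes Krt5 and Krt14 had 0 reads in both day 14 groups. The epithelial sums of the genotypes overlapped at day 14, where those of Foxq1 did not, and their part in the Foxq1 levels was not tested.

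Myeloid markers summed to 1.92 to 3.93 CPM in WT and 3.53 to 9.65 CPM in the knockout at day 7, and to 10.2 to 31.6 CPM in WT and 16.3 to 27.6 CPM in the knockout at day 14. Itgam and Itgax had 0 reads in every group. Over time 3 of the 5 tested genes rose in WT (Adgre1, Cd14 and Cd68), and in the knockout Adgre1 and Cd68 rose and Fcgr3 fell. For this and the next lists, 13.2% of all genes rose and 7.33% fell in WT, and 10.5% and 4.92% in the knockout. The lane series term, which cannot check a knockout change over time, gave an edgeR adjusted p of 0.288 for Cd68 and 0.156 for Fcgr3. The knockout call of Cd68 was lost without knockout day 7 library 1, 2 or 3 or knockout day 14 library 2 or 3 (up to 0.125).

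Fcgr3, Cd14 and Lyz2 of the myeloid list had the signs of the Foxq1 genotype differences, while Adgre1 and Cd68 did not at day 14. For Lyz2 this follows from the list medians. They put it at 1.34 or higher at day 7 and at -1.82 or lower at day 14. Lyz2 was at an unadjusted p under 0.05 at day 7 but not at day 14, and edgeR called neither difference. Adgre1 differed by 0.19 ± 0.45 at day 7 and 0.54 ± 0.49 at day 14 (edgeR adjusted p = 0.827 and 0.538). Cd68 differed by 1.34 ± 0.52 and 0.36 ± 0.54 (edgeR adjusted p = 0.164 and 0.736). The list median was 1.34 at day 7 and -1.82 at day 14. Fcgr3, an Fc receptor gene, stood at 0.752 to 1.37 CPM in WT and 1.33 to 2.30 CPM in the knockout at day 7, and at 1.55 to 2.07 and 0.422 to 0.593 CPM at day 14. Its difference was 0.75 ± 0.31 at day 7 (edgeR adjusted p = 0.178) and -1.82 ± 0.38 at day 14, which passed (0.0309). The day 14 call was lost without knockout day 7 library 3, WT day 14 library 1 or 2, or knockout day 14 library 1 or 3 (up to 0.150), and the lane series term gave 0.0756. Cd14, a receptor gene for bacterial lipids, differed by 3.15 ± 0.92 at day 7 and by -2.51 ± 0.85 at day 14, and neither passed (edgeR adjusted p = 0.154 and 0.126). Between the contrasts the difference was -5.66 ± 1.25 for Cd14 (edgeR adjusted p = 0.127) and -2.57 ± 0.49 for Fcgr3 (0.0698), and without WT day 14 library 3 it passed for both (0.0371 and 0.0153). The list median of that difference was -2.57, against 0.06 over all genes, with 0 of 5 genes called by edgeR, 3 at an unadjusted p under 0.05, 2 by DESeq2 and 2 by limma-voom. Of the 11591 genes tested, 924 were at that unadjusted p. The part of myeloid RNA in the Foxq1 levels was not tested.

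Mast cell and basophil markers summed to 35.0 to 70.3 CPM in WT and 53.4 to 86.8 CPM in the knockout at day 7. At day 14 they summed to 3.91 to 8.03 CPM in WT and 23.4 to 132 CPM in the knockout, and Mcpt8, Ms4a2 and Prss34 had 0 reads in every group. Over time 4 of 5 tested genes fell in WT (Kit, Cpa3, Cma1 and Tpsb2), and in the knockout Kit rose and Hdc and Cma1 fell. In the knockout the lane series term, which cannot check a change over time there, gave an edgeR adjusted p of 0.690 for Kit and 0.211 for Hdc. Leaving out 1 library ended the WT call of Tpsb2 (WT day 7 library 1 or WT day 14 library 1 or 3, up to 0.101). It also ended the knockout calls of Kit (knockout day 7 library 3 or 4 or knockout day 14 library 1 or 2, up to 0.109) and Cma1 (knockout day 7 library 2 or 4 or knockout day 14 library 2 or 3, up to 0.0806).

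At day 14, 2 of the 5 tested mast cell genes were higher in the knockout, the group where Foxq1 and Foxf2 were lower. Of all genes 0.845% were higher there and 0.578% lower. Hdc (-0.36 ± 0.47, edgeR adjusted p = 0.696) and Tpsb2 (-3.17 ± 2.40, edgeR adjusted p = 0.459) did not pass and had the opposite sign. Tpsb2 had 3 reads in WT and 0 in the knockout, and Cma1 had 0 in both groups. Kit, the stem cell factor receptor gene, was higher by 6.63 ± 1.11 (edgeR adjusted p = 0.0115, 0.0622 without WT day 14 library 1). Cpa3, a mast cell protease gene, was higher by 3.80 ± 0.77 (edgeR adjusted p = 0.0270, up to 0.0823 without WT day 14 library 1 or 2). Kit also passed for the difference between the contrasts (8.23 ± 1.32, edgeR adjusted p = 0.0370, 0.123 with the lane series term). That call was lost in 10 of 14 fits (up to 0.107) and held only without knockout day 7 library 4, WT day 14 library 3 or knockout day 14 library 1 or 3. The part of these cells in the levels of Foxq1 and Foxf2 was not tested.

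Endothelial markers summed to 145 to 171 CPM in WT and 59.3 to 121 in the knockout at day 7, and to 70.1 to 90.6 and 40.5 to 71.8 at day 14, nearly all of it Pecam1, which T cells also carry. Tek and Emcn had 0 reads in every group. Of 3 tested genes Pecam1 fell in WT (lost without WT day 14 library 1, edgeR adjusted p = 0.0747) and Eng in the knockout (0.0712 with the lane series term). Eng, a co-receptor gene for TGF-beta, was lower in the knockout at day 14 by -2.91 ± 0.66 (edgeR adjusted p = 0.0447, 0.105 with the lane series term). That call was lost in 11 of 14 fits (up to 0.199) and held only without knockout day 7 library 4, WT day 14 library 3 or knockout day 14 library 2. Without WT day 14 library 3 the difference between the contrasts passed for Eng (0.0276, against 0.183).

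B cell markers summed to at most 4.25 CPM. Of 2 tested genes, Cd79b fell in WT and both Cd79a and Cd79b fell in the knockout. The WT call of Cd79b was lost with the lane series term (edgeR adjusted p = 0.0630). In the knockout, where that term cannot check a change over time, it gave 0.133 for Cd79a and 0.350 for Cd79b. The knockout call of Cd79b was lost without knockout day 7 library 4 or knockout day 14 library 2 or 3 (up to 0.103). CD8 and natural killer cell markers summed to at most 21.1 CPM. Cd8b1, the 1 gene tested, was 0.90 ± 0.27 higher in the knockout at day 7 and 0.98 ± 0.31 at day 14. The edgeR test called neither (adjusted p = 0.154 and 0.112), while both were at an unadjusted p under 0.05 and were called by DESeq2 and by limma-voom. Of the 11591 genes tested, 2716 at day 7 and 2515 at day 14 were at that unadjusted p. The part of endothelial, B cell and CD8 cell RNA in the levels of Foxq1 and Foxf2 was not tested.

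The coding sequence of Foxq1 has 71.2% G and C and that of Foxf2 65.5%, above 99.5% and 98.1% of the genes tested, whose median is 53.0%. With each library's trend over GC content and coding length removed, an alternative added after seeing the data, the Foxq1 differences were 1.06 and -1.49 between genotypes at day 7 and day 14. Over time they were 4.51 in WT and 1.96 in the knockout. For Foxf2 the differences were -1.75 at day 14, 9.61 in WT over time and 5.82 in the knockout. With the lane series as a term, Foxq1 stood at 0.85, -1.51, 4.93 and 2.58, and Foxf2 over time at 9.95 and 6.21. The knockout values over time, 2.58 and 6.21, rest on a lane effect taken from WT and do not check those differences. No sign changed for either gene under these settings.

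**Figure D4:**
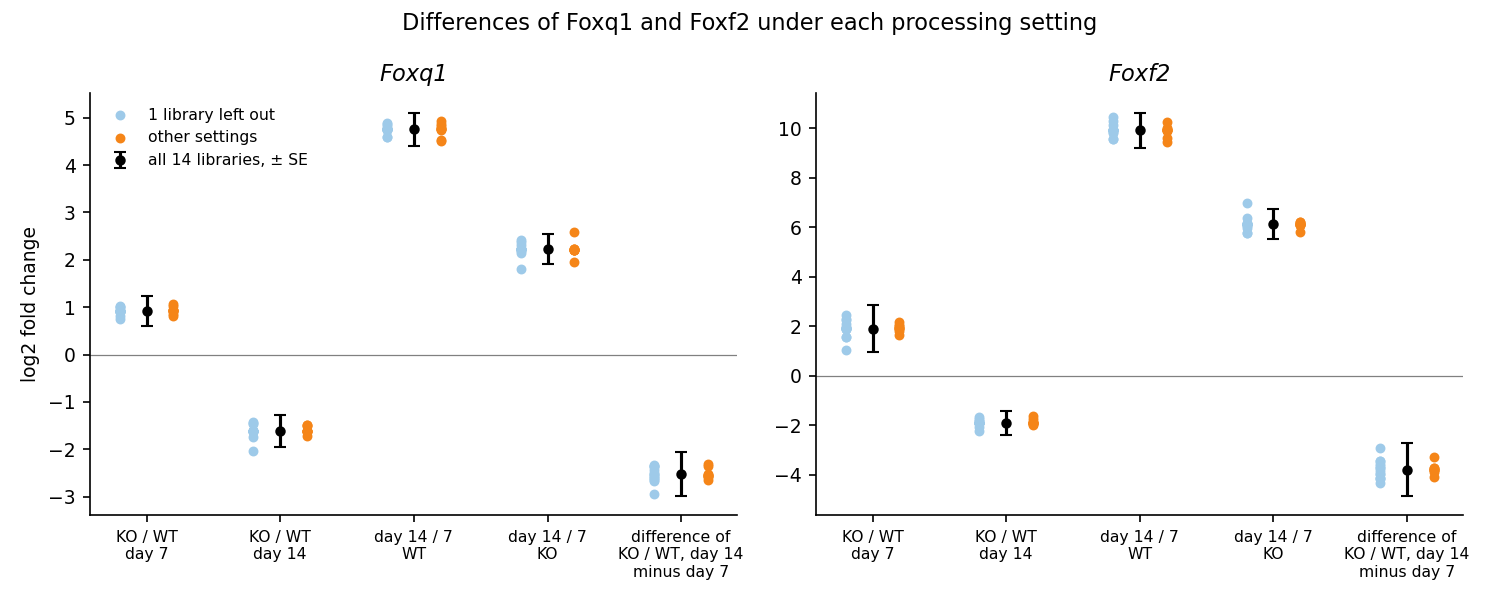
Log2 fold changes (vertical axes, separate for each gene) of Foxq1 and Foxf2 in 4 comparisons and in the difference between the genotype contrasts. Black points show the fit of all 14 libraries ± SE, blue points the fits that each left out 1 library, and orange points the other settings. Every point keeps the sign of the black one. The Foxq1 difference at day 14 ran from -2.03 to -1.42 when 1 library was left out.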

How the data were processed

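Each library has a table, deposited by the authors, of read counts and RPKM for 22598 genes, per the file headers. Reads were aligned with GSNAP 2013-11-01 to GRCm38, per the submitters' processing notes, while the sources used here name no counting tool, annotation or strandedness. GENCODE vM21 gave symbols for 22457 identifiers and all gene coordinates. RPKM values were used only to compare levels between genes.

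Counts were fitted in R 4.3.3 with edgeR 4.0.16 over all 14 libraries: filterByExpr (11591 genes), TMM scaling, robust quasi-likelihood, 1 mean per group, Benjamini-Hochberg adjusted p under 0.05. CPM use TMM-scaled totals. The SE is the log2 fold change divided by the square root of F. Correlations used log2 CPM with a prior count of 2. Counting intervals are exact, at 95%. The fit was tested on simulated data. Alternatives were other scalings and count filters, DESeq2 1.42.0, limma-voom (limma 3.58.1), separate fits for each comparison's own libraries, a replicate block, the lane series as a term, each library left out and, added after seeing the data, a GC and coding length trend removed (natural splines, 5 degrees of freedom).

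Named genes were the 3 cluster genes, Ago1, tested genes within 1 Mb, forkhead genes called in any comparison and the 3 most abundant others, the 3 genes most correlated with Foxq1 and with Foxf2, and the most abundant and called genes of 12 lists (T cell, Th2, fibroblast and pericyte, endothelial, epithelial, myeloid, mast cell and basophil, B cell, CD8 and natural killer cell, hedgehog, Wnt, mesenchymal). Not all of these are reported. The cluster genes and the lists were chosen with earlier results of these data known.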

Additional observations from a re-analysis of the deposited data

Results flagged for a closer look

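The knockout to WT difference of Foxq1 had opposite signs at the 2 days, with all 4 knockout libraries above all 4 WT libraries at day 7 and all 3 below all 3 at day 14. The difference between the contrasts was -2.53 on the log2 scale. It was not tested, since the gene was chosen by these values. For Kit the same difference, 8.23, passed the edgeR test (adjusted p = 0.0370).

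Among the named genes, each day 7 group of 4 libraries was searched for 1 library far from the others, judged by its gap to the nearest library divided by the range of the group. For values spread over all 4 libraries, chance does this in about 1 of 20 groups. Every named gene was searched in both day 7 groups. Several such cases are therefore expected at this rate, and nothing is read from those listed. That rate does not hold where 3 libraries have 0 reads, since the ratio is then 1 by construction. This was so for Foxc1 in WT and in the knockout (1 read in library 1 of each), for Cdh1 in WT (2 reads in library 1) and in the knockout (1 read in library 3), and for Mcf2l in WT (4 reads in library 1).

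In the knockout at day 7, library 4 was the highest for 3 genes. Dusp22 stood there at 4.83 CPM against 3.18 to 3.45 CPM (ratio 0.836), Ccr8 at 115 against 7.13 to 17.2 CPM (0.907) and Hdc at 12.9 against 4.54 to 5.29 CPM (0.910). Tpsb2 was highest in library 1 of both day 7 groups, at 1.73 against 0.460 to 0.511 CPM in WT (0.960) and at 0.559 against 0 to 0.0940 CPM in the knockout (0.832). Cd79a was lowest in library 1 of WT at day 7, at 0.334 against 0.488 to 0.511 CPM (0.871).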

How the results depend on the processing

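No difference of Foxq1 or Foxf2 changed sign under any setting run. Upper quartile scaling moved the median log2 fold change of all genes by 0.10 at day 7, 0.11 in WT over time and -0.11 for the difference between contrasts, and relative to that median Foxq1 stood at 0.94, 4.75 and -2.60, against 0.93, 4.76 and -2.59. Leaving out 1 library gave -2.94 to -2.33 for Foxq1 in the difference between contrasts. For Foxf2 it gave 1.03 to 2.44 at day 7, 9.56 to 10.46 in WT over time, 5.76 to 6.99 in the knockout over time and -4.33 to -2.93 in the difference. Limma-voom put Foxf2 at 9.43 in WT over time. Foxf2 did not pass the filter in the fit of the day 7 libraries alone, and no neighbour other than A530084C06Rik lies wholly within 0.5 Mb, so neither alternative gave a value.

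Counts of genes passing the test over all genes depended on the setting, and the cause was not tested. At day 7, 11 passed, with 506 by DESeq2, 5045 by limma-voom and 8 to 14 without 1 library. At day 14, 165 passed, with 0 in a fit of those libraries alone (fewer samples), 79 with the lane series term, 945 by DESeq2, 1930 by limma-voom, 543 with GC and length trends removed and 42 to 2640 without 1 library. In WT over time 2375 passed (1525 higher, 850 lower), with 4581 by limma-voom (2237 and 2344), 3848 with the trends removed (1676 and 2172) and 1723 to 3539 without 1 library. In the knockout over time 1792 passed (1222 and 570), with 370 with the lane series term, 2706 by limma-voom, 3355 with the trends removed (1409 and 1946) and 1061 to 2420 without 1 library. For the difference 10 passed, with 1 with the lane series term, 159 by DESeq2, 471 by limma-voom, 78 with the trends removed and 1 to 380 without 1 library.

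Replicate numbers did not pair the samples throughout. Correlations of same-numbered libraries' deviations ran from -0.12 to 0.42 between genotypes at day 7 and 0.05 to 0.35 at day 14. Between days they ran from -0.46 to 0.19 in WT and -0.34 to 0.02 in the knockout. The same-numbered knockout library was the best match of WT libraries 2 and 4 at day 7 and of WT libraries 1 and 2 at day 14. A pairing of some libraries between genotypes is therefore not excluded. With the number as a replicate block, 15, 236, 2221, 1607 and 7 genes passed in the 5 comparisons. Over time, the block ended the calls of Foxk1 and Cd5 in WT and of Foxk2, Foxo3, Smo, Myc and Cd79b in the knockout. Between genotypes it ended that of Eng at day 14.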
